A study of Mus musculus with 12 samples.

Results

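The antioxidant enzyme genes of blood were taken as 9 genes, *Prdx1*, *Prdx2*, *Prdx5*, *Prdx6*, *Cat*, *Gpx1*, *Gpx4*, *Sod1* and *Txn1*, and their members are the array probes that carry one of these symbols in the platform annotation. The annotation gave 17 such probes among 45281, for 7 of the 9 genes (of 19057 genes named on the array), and listed no probe for *Prdx5* or *Prdx6*. Of the 17 probes, 11 were above background and represent all 7 genes, and each of the 11 was detected on at least 5 of 6 arrays of either genotype. A probe was detected on an array at a detection p under 0.01, and it was kept if this held on at least 3 of 12 arrays.

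Blood was drawn from 3 *Pik3cg*-/- females and from 3 wild type females of C57BL/6J Jax, aged 13 to 16 weeks and fed the same breeder diet. *Pik3cg* encodes the catalytic subunit of phosphoinositide 3-kinase γ. The line with the knockout allele, Pik3cgtm1Pngr, was backcrossed to C57BL/6J Jax and then bred by intercrossing in a closed colony, and no source used here describes the wild type mice as littermates. RNA of each mouse was labelled in 2 separate reactions and hybridized to 2 Illumina MouseWG-6 v2 arrays, which were averaged, so that n = 3 mice per genotype throughout. Mice are named A, B and C within a genotype.

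These enzymes remove reactive oxygen species in steps. Superoxide dismutases turn superoxide into hydrogen peroxide. Catalase, glutathione peroxidases and peroxiredoxins then reduce the peroxide, and thioredoxin and glutathione return the reducing power. Red cells depend on them because iron in hemoglobin generates superoxide, and peroxiredoxin 2 and catalase are among the most abundant proteins of the mature cell. That cell has no nucleus, so that red cell transcripts in blood come mainly from reticulocytes.

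Detected probes numbered 4648 to 4995 on wild type and 3558 to 5511 on knockout arrays, with the lowest 2 numbers, 3558 and 3696, for knockout mouse C. Duplicate arrays differed with a standard deviation of 0.25 (log2) for wild type and of 0.30 to 0.33 for knockout mice. Of the *Pik3cg* probes, 1 was detected on 2 of 6 arrays of each genotype and the other on none, so the arrays do not check the genotype. Of the fixed marker lists, summed intensity did not overlap between the genotypes for platelets (12 of 14 markers measured, 14951 to 44749 in knockout and 52447 to 75644 in wild type mice) and monocytes (6 of 10 measured, 24303 to 24854 and 38780 to 66785). For red cells (6 of 15 measured) it was 188683 to 192559 in knockout and 180825 to 191745 in wild type mice, with overlap. The median red cell marker, taken relative to the wild type mean, did not overlap. By mouse (A, B, C) it was −0.18, 0.02 and 0.14 for wild type, against 0.21, 0.30 and 0.51 for knockout. None of the measured markers of these 3 lists passed an adjusted p under 0.05 from limma. Among the defining markers, *Itgb3* of platelets, *Tfrc* of reticulocytes and *Ccr2* of monocytes were not above background.

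None of the 11 measured enzyme probes differed between the genotypes at an adjusted p under 0.05 (limma, Benjamini-Hochberg over all 5498 kept probes), where 2.73% of all kept probes passed, 1.44% higher and 1.29% lower in knockout mice. At an unadjusted p under 0.05, 2 of the 11 passed, against 1157 of all 5498, and the 2 are the measured probes of *Gpx4*. The log2 fold-change, given throughout as knockout minus wild type, was positive for 7 of the 11 probes and negative for 4, with a median of 0.09 beside −0.02 over all kept probes. The number of probes called over the whole array was 150 and depended on which mice were in the fit. It was 41, 40 and 43 when wild type mouse A, B or C was left out. It was 344, 46 and 136 when knockout mouse A, B or C was. The number of called enzyme probes was 0 in each of these fits. With the arrays scaled to a common 75th percentile, the 150 calls (79 higher, 71 lower) became 307 (67 higher, 240 lower), the median of all probes moved to −0.19, and 1 enzyme probe, of *Gpx4*, was called.

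**Figure D1:**
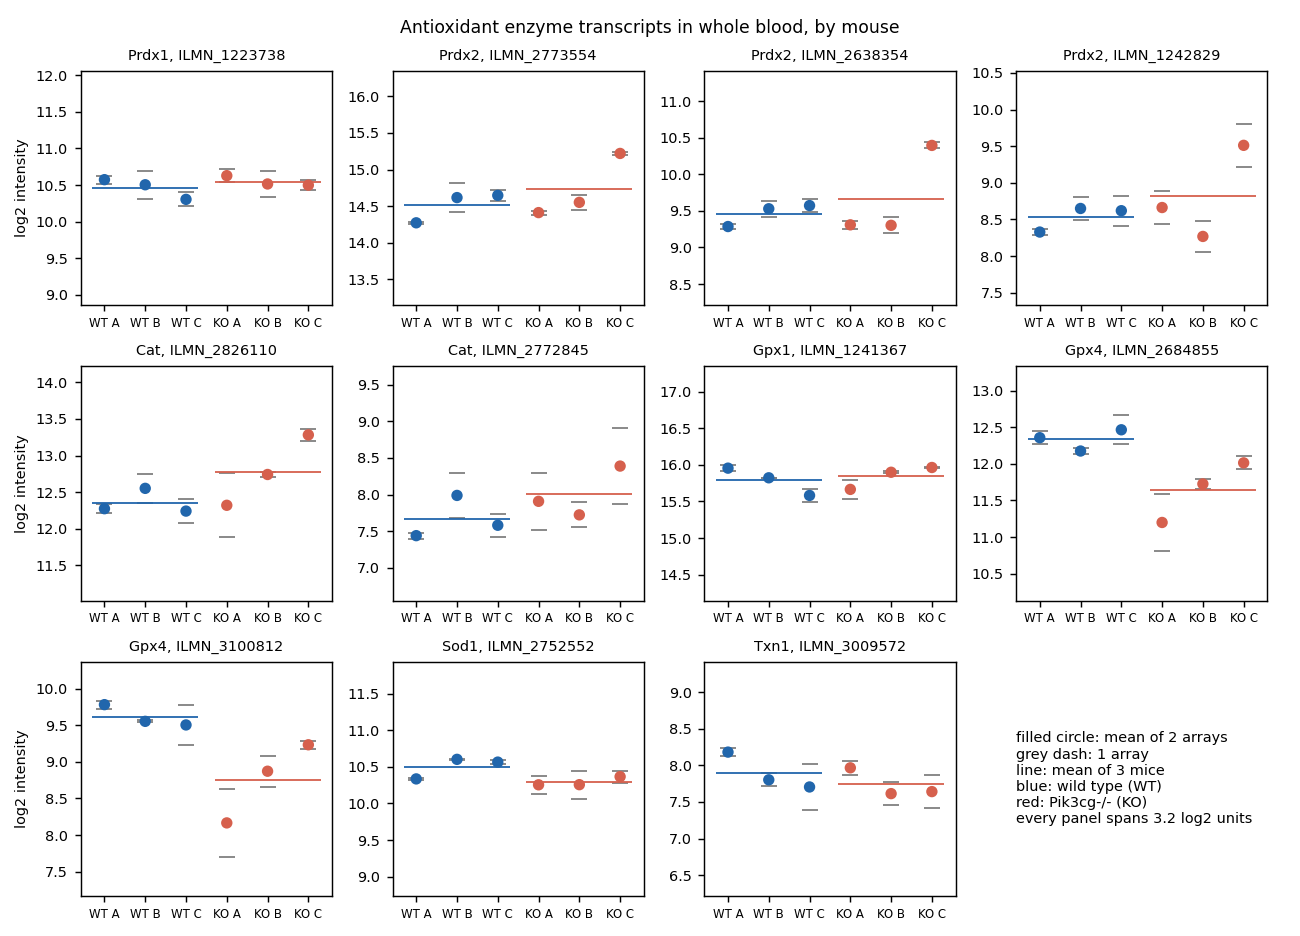
Log2 intensity of the 11 measured enzyme probes in each mouse. Filled circles are the mean of the 2 arrays of a mouse, grey dashes the single arrays, and lines the mean of 3 mice; blue is wild type (WT), red is *Pik3cg*-/- (KO), and each panel spans the same range. Knockout mouse C is the highest of the 6 mice in the 3 *Prdx2* and the 2 *Cat* panels, and in both *Gpx4* panels all knockout mice lie below all wild type mice.

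*Gpx4* encodes glutathione peroxidase 4, the selenoprotein that reduces lipid hydroperoxides within membranes, and its transcript was lower in each knockout mouse than in any wild type mouse on both measured probes. On probe ILMN_2684855 the log2 intensity was 11.20, 11.73 and 12.01 in knockout and 12.36, 12.18 and 12.47 in wild type mice, each in the order A, B, C. On probe ILMN_3100812 it was 8.17, 8.87 and 9.23 in knockout and 9.78, 9.55 and 9.50 in wild type mice. The groups did not overlap on either probe, and the order of the knockout mice was the same on both, with mouse A lowest. Every knockout mouse lay below every wild type mouse in 14.4% of all kept probes. The log2 fold-change was −0.69 (standard error 0.22, 95% interval −1.20 to −0.17, adjusted p = 0.140 from limma) on the first probe. On the second it was −0.86 (standard error 0.26, 95% interval −1.46 to −0.25, adjusted p = 0.124). Neither passed.

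The spread of *Gpx4* was wider in knockout mice. Its standard deviation on the first probe was 0.41 among knockout and 0.15 among wild type mice, and on the second 0.54 and 0.15 (n = 3 each). The size of the difference also depended on which arrays were used. With technical array 1 of each mouse alone the log2 fold-changes of the 2 probes were −0.91 and −1.20, and with technical array 2 alone −0.46 and −0.51. Without knockout mouse A they were −0.46 and −0.56 (adjusted p = 0.151 and 0.108). With scaling to the 75th percentile the second probe passed at −1.05 (adjusted p = 0.0205), where the median of all probes stood at −0.19, and the first did not at −0.84 (adjusted p = 0.0602). Array weights, whose estimation stopped before convergence, called both (−0.59 and −0.75, adjusted p = 0.00726 and 0.00390), among 1761 of all 5498 probes.

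Platelet markers were lower in the same knockout mice. Relative to the wild type mean, the median platelet marker stood at −2.63, −0.84 and −0.59 in knockout mice A, B and C, which is the order of the *Gpx4* values (−1.13, −0.61 and −0.32 on the first probe and −1.45, −0.74 and −0.38 on the second). The median red cell marker, higher in knockout mice, had the same order of mice, at 0.21, 0.30 and 0.51. The median monocyte marker stood at −0.53, −0.67 and −0.58 and the median neutrophil marker at 0.31, −0.11 and −0.20, which is not that order. The order of 3 mice thus does not single out platelets. The part of these cells in the *Gpx4* difference was not tested. In whole blood RNA, fewer cells of a type and less RNA per cell cannot be told apart. The third *Gpx4* probe was undetected on all 12 arrays. The 2 measured probes read the same RNA and are not independent samples.

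**Figure D2:**
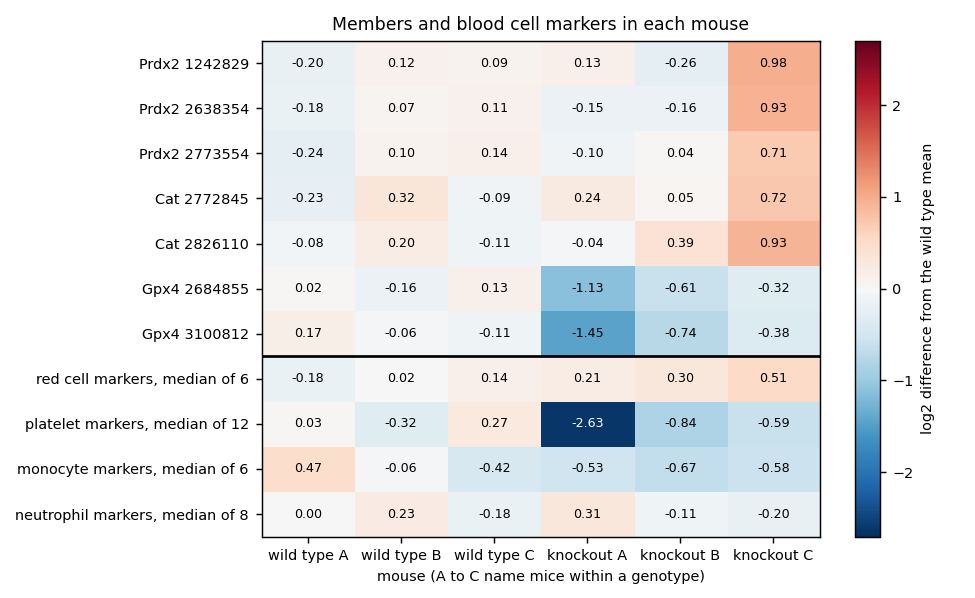
Log2 difference from the wild type mean in each mouse (columns), for the measured probes of *Prdx2*, *Cat* and *Gpx4* and for the median of 4 blood cell marker lists (rows below the line). *Gpx4* and the platelet list are lowest in knockout mouse A (−1.13, −1.45 and −2.63), and *Prdx2* and *Cat* are highest in knockout mouse C, between 0.71 and 0.98. Values are after normalization, and knockout mouse C had the fewest detected probes.

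*Prdx2*, a thiol peroxidase abundant in red cells, stood highest in 1 knockout mouse and did not differ between the genotypes beyond the spread. On the brightest probe, ILMN_2773554, the log2 intensity was 14.27, 14.62 and 14.65 in wild type mice A, B and C and 14.41, 14.55 and 15.22 in the knockout mice. Knockout mice A and B lay within the wild type range and mouse C above it. The probe ILMN_2638354 gave 9.29, 9.53 and 9.57 in wild type and 9.31, 9.30 and 10.39 in knockout mice. The probe ILMN_1242829 gave 8.33, 8.65 and 8.62 in wild type and 8.66, 8.27 and 9.51 in knockout mice. On all 3 probes knockout mouse C was the highest of the 6, by 0.71, 0.93 and 0.98 above the wild type mean, and the groups overlapped. Mouse C also had the fewest detected probes, 3558 and 3696 on its 2 arrays. Its array 1 exceeded every array of the other mice on all 3 probes only after normalization. For ILMN_2638354 the deposited signal was 795 there and 853 on array 2 of wild type mouse B. Its array 2 exceeded them both before and after normalization. The part of normalization in its lead was not tested.

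Over the 3 mice the *Prdx2* probes had log2 fold-changes of 0.22, 0.21 and 0.28, with 95% intervals of −0.33 to 0.76, −0.46 to 0.88 and −0.40 to 0.96 and adjusted p of 0.647, 0.733 and 0.630 from limma. Without knockout mouse C the values turned to −0.030, −0.16 and −0.067. The knockout mean thus rests on that mouse, and the intervals leave room for changes of either sign. Between the 2 arrays of a mouse the brightest probe had a standard deviation of 0.087 in knockout and 0.17 in wild type mice.

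*Cat* encodes catalase, which breaks down hydrogen peroxide without a reducing partner, and it had its highest value in the same mouse. On probe ILMN_2826110 the log2 intensity was 12.27, 12.55 and 12.24 in wild type mice A, B and C and 12.32, 12.74 and 13.28 in knockout mice. Probe ILMN_2772845 gave 7.44, 7.99 and 7.58 in wild type and 7.91, 7.72 and 8.39 in knockout mice. Knockout mouse C was the highest of the 6 on both probes, and the groups overlapped. Normalization altered the order of single arrays here too. On ILMN_2826110 the deposited signal was 6481 on array 1 of that mouse and 7016 on array 1 of wild type mouse B. After normalization the log2 intensities were 13.20 and 12.75. The log2 fold-changes were 0.43 (95% interval −0.14 to 0.99, adjusted p = 0.360) and 0.34 (95% interval −0.18 to 0.86, adjusted p = 0.433), and neither passed. With 1 mouse left out they ran from 0.18 (without knockout mouse C) to 0.66 (without knockout mouse A, adjusted p = 0.0994) on the first probe, and from 0.15 (without knockout mouse C) to 0.50 (without wild type mouse B, adjusted p = 0.380) on the second.

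The *Cat* values also varied between the duplicate arrays, and the genotype difference depended on which was used. The standard deviation between the 2 arrays of a knockout mouse was 0.37 on the first *Cat* probe and 0.55 on the second, and in wild type mice 0.21 and 0.28. With technical array 1 alone the log2 fold-changes were 0.12 and 0.14, and with technical array 2 alone 0.73 and 0.53. The median red cell marker stood at 0.21, 0.30 and 0.51 above the wild type mean in the knockout mice, with the highest value in mouse C, as for *Prdx2* and *Cat*. Its part in these values was not tested.

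*Gpx1*, the cytosolic glutathione peroxidase and another selenoprotein, was read near the ceiling of the arrays. The log2 intensity of its only probe, ILMN_1241367, was 15.95, 15.82 and 15.58 in wild type mice A, B and C and 15.66, 15.90 and 15.96 in knockout mice. The groups overlapped, with wild type mouse C lowest and knockout mouse C highest, and had a log2 fold-change of 0.06 (95% interval −0.34 to 0.45, adjusted p = 0.884 from limma). Its deposited signal ran from 41027 to 68840 on the 12 arrays, or 57.0% to 97.1% of the brightest probe on the same array, where the brightest probe lay between 70589 and 71915. The files hold no saturation flag, and a difference at such signals can be compressed. For the brightest *Prdx2* probe the share was 24.9% to 64.1%, and for the brightest *Cat* probe 4.90% to 17.4%.

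**Figure D3:**
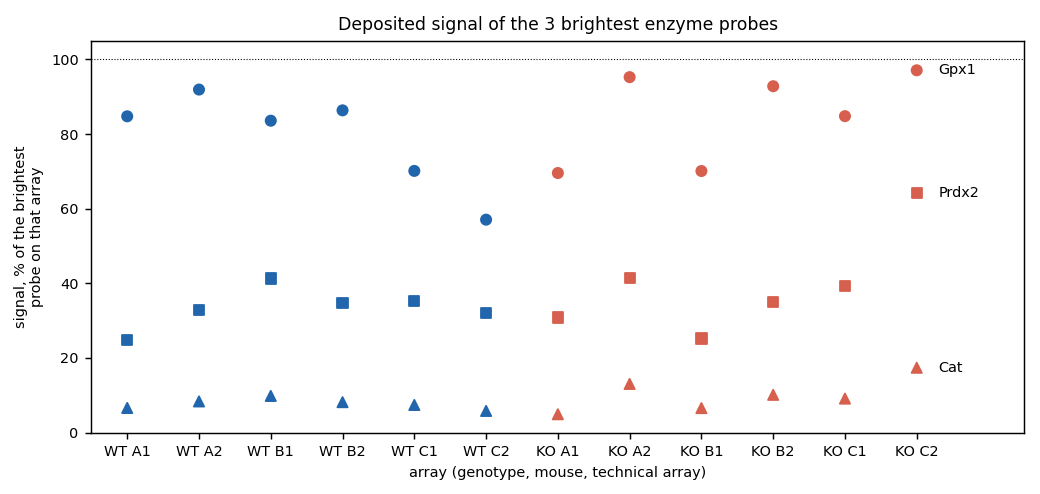
Deposited signal of 3 enzyme probes on each of the 12 arrays, as a percentage of the brightest probe on that array (dotted line); blue is wild type (WT), red is *Pik3cg*-/- (KO), and 1 and 2 are the technical arrays. *Gpx1* lies between 57.0% and 97.1%, *Prdx2* between 24.9% and 64.1%, and *Cat* between 4.90% and 17.4%.

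*Sod1*, *Prdx1* and *Txn1* overlapped between the genotypes. *Sod1* encodes the cytosolic copper and zinc superoxide dismutase. Its measured probe, ILMN_2752552, gave a log2 intensity of 10.33, 10.60 and 10.56 in wild type and 10.25, 10.26 and 10.37 in knockout mice A, B and C. Knockout mice A and B lay below all wild type mice, while mouse C lay above wild type mouse A. The log2 fold-change was −0.21 (standard error 0.16, 95% interval −0.56 to 0.15, adjusted p = 0.483). The other 2 *Sod1* probes were undetected on all 12 arrays.

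*Prdx1*, a cytosolic peroxiredoxin of nucleated cells and red cells, had on probe ILMN_1223738 a log2 intensity of 10.57, 10.50 and 10.31 in wild type and 10.63, 10.52 and 10.50 in knockout mice. The groups overlapped and the difference was 0.09 (standard error 0.16, 95% interval −0.27 to 0.44, adjusted p = 0.791). It was 0.0085 without wild type mouse C, and its sign was not stable, with −0.11 on scaling to the 75th percentile and −0.058 with technical array 2 alone. *Txn1*, thioredoxin, is the small protein that reduces peroxiredoxins. Its probe ILMN_3009572 gave 8.18, 7.80 and 7.70 in wild type and 7.97, 7.61 and 7.64 in knockout mice, a difference of −0.16 (95% interval −0.59 to 0.28, adjusted p = 0.684). It was −0.013 when wild type mouse A was left out and −0.27 when knockout mouse A was. Its deposited signal was only 93.5 to 381.7, and it was detected on 5 of 6 knockout and 6 of 6 wild type arrays. The second *Prdx1* probe and the other 2 *Txn1* probes were undetected on all 12 arrays.

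For 3 member genes a second measured probe allowed the readings of a gene to be compared. The difference between the brightest and the second probe was formed in each mouse and tested between the genotypes with limma over all 673 genes with 2 measured probes, of which 0.446% passed. It was 0.01 for *Prdx2* (standard error 0.16, adjusted p = 0.980), 0.09 for *Cat* (standard error 0.19, adjusted p = 0.919) and 0.17 for *Gpx4* (standard error 0.16, adjusted p = 0.817). None of these 3 passed, so no disagreement between the probes of a gene was detectable with 3 mice per genotype.

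*Prdx5* encodes a peroxiredoxin of mitochondria, peroxisomes and cytosol. The annotation lists no probe for it, but the study's list of changed transcripts gives its symbol to probe ILMN_1239765. Since the probe is known here only because it had changed in these samples, its values are a description, and no p is given for it although it was in the fit over all kept probes. The log2 intensity was 11.16, 10.78 and 10.75 in wild type mice A, B and C and 10.22, 10.05 and 10.25 in knockout mice, so the groups did not overlap. The same held, with knockout mice below, for 14.4% of all kept probes. The mean difference was −0.72, from 10.89 ± 0.23 (SD, n = 3) in wild type to 10.17 ± 0.11 (SD, n = 3) in knockout mice. *Prdx6* has no named probe and no value here.

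**Figure D4:**
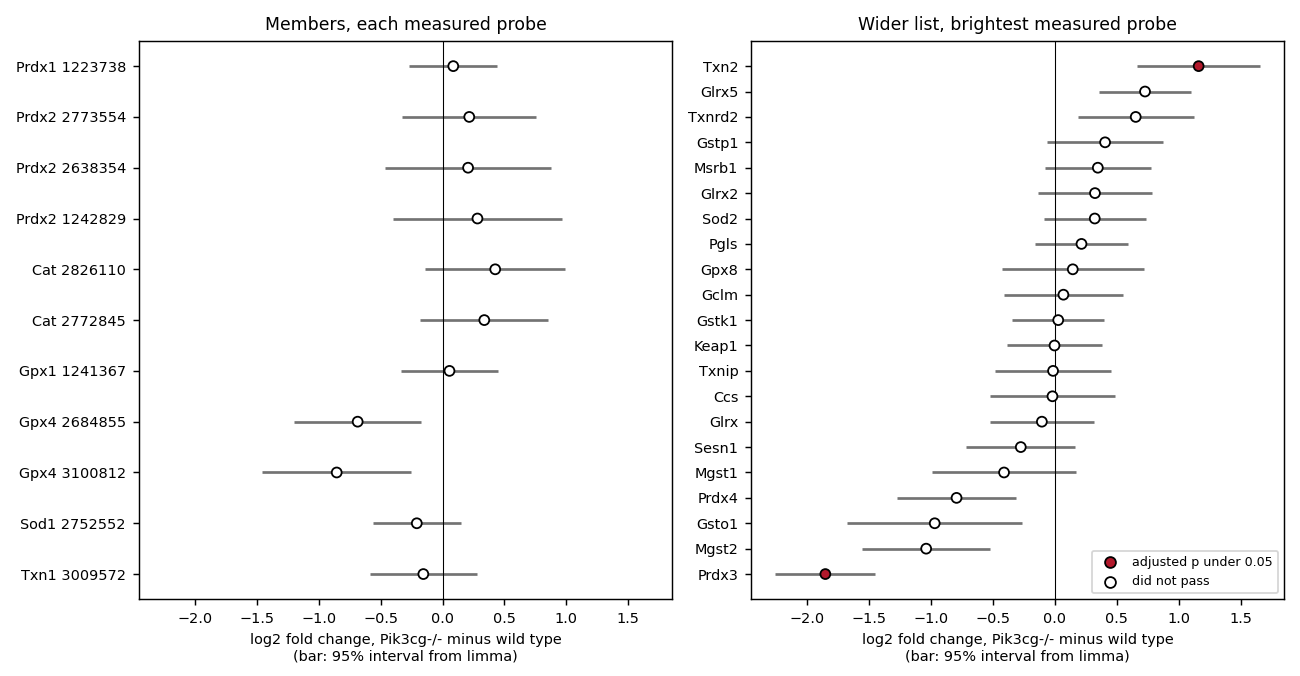
Log2 fold-change, knockout minus wild type, with its 95% interval from limma, for the 11 measured enzyme probes (left, with the number of the probe) and for the 21 measured genes of the wider antioxidant list (right). Filled circles passed an adjusted p under 0.05. All 11 enzyme probes are open, the *Gpx4* intervals lie below 0, and *Txn2* (1.16) and *Prdx3* (−1.85) are filled.

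Around these enzymes, a list of 50 further genes of peroxide and superoxide removal, thiol systems, glutathione and its control was examined. Of these, 48 had a named probe and 21 were above background. With each gene represented by its brightest measured probe, 1 rose, 1 fell and 19 did not pass, where 2.49% of all 3822 genes passed. The median log2 fold-change of the 21 was 0.03, beside −0.03 over all genes. Both called genes encode mitochondrial proteins, as do *Sod2*, *Glrx5* and *Txnrd2* of the same list, which did not pass. *Prdx3*, the mitochondrial peroxiredoxin, fell. Its log2 intensity was 7.73, 7.73 and 7.68 in wild type and 5.66, 5.76 and 6.16 in knockout mice A, B and C. It was detected on 6 of 6 wild type arrays and on 0 of 6 knockout arrays. The fitted log2 fold-change was −1.85 (standard error 0.18, adjusted p = 0.00159 from limma). The probe was kept through its wild type arrays alone, and without any filter its adjusted p was 0.00348. As the knockout level was not above background, only a bound holds: the lowest detected signal of each knockout array gives a level at least 1.35-fold lower.

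*Txn2*, the mitochondrial thioredoxin that reduces peroxiredoxin 3, rose. Its log2 intensity was 6.58, 7.11 and 7.10 in wild type and 7.83, 8.04 and 8.40 in knockout mice. The log2 fold-change was 1.16 (standard error 0.22, 95% interval 0.66 to 1.66, adjusted p = 0.0322). It was detected on 6 of 6 knockout but only 2 of 6 wild type arrays, so that the probe was kept through its knockout arrays and the size of the change is uncertain. Without any filter it did not pass (adjusted p = 0.0862). The call of *Txn2* was lost in 9 of 20 other settings, among them those that left out wild type mouse A, B or C (adjusted p = 0.130, 0.0889 and 0.102), knockout mouse B (0.105) or knockout mouse C (0.0594). Its log2 fold-change was 0.99 to 1.29 with 1 mouse left out, 0.74 without background correction and 0.45 on the authors' log2 values, and its direction did not change in any of the 20. *Prdx3* lost its call in 1 of 20, the methods' analysis of variance (adjusted p = 0.101).

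The 4 brightest genes of the wider list did not pass. *Glrx5*, a mitochondrial glutaredoxin of iron-sulfur cluster assembly, was at 14.35 ± 0.12 (SD, n = 3) in wild type and 15.08 ± 0.15 (SD, n = 3) in knockout mice, a log2 fold-change of 0.73 (95% interval 0.36 to 1.10, adjusted p = 0.0533). *Gclm*, the modifier subunit of the enzyme that starts glutathione synthesis, had 0.07 (adjusted p = 0.883). *Txnip*, a binding partner of thioredoxin, had −0.01 (adjusted p = 0.978), and *Sod2*, the mitochondrial superoxide dismutase, 0.32 (adjusted p = 0.341). Of the other genes, singled out after their values were seen, the microsomal glutathione transferase *Mgst2* had −1.04 (adjusted p = 0.0525), the glutathione transferase *Gsto1* −0.97 (adjusted p = 0.132) and *Prdx4*, the peroxiredoxin of the endoplasmic reticulum, −0.79 (adjusted p = 0.0855). Each was detected on 6 of 6 wild type arrays, but on only 3, 3 and 2 of 6 knockout arrays. The *Prdx4* probe was thus kept through its wild type arrays, and the sizes of these 3 differences are uncertain. *Txnrd2*, the mitochondrial thioredoxin reductase, had 0.65 (adjusted p = 0.128). *Nfe2l2*, which encodes the NRF2 activator of antioxidant genes, was not above background, and its inhibitor *Keap1* had −0.0028 (adjusted p = 0.996).

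NRF2 binds antioxidant response elements, and the promoters of the enzymes were searched for the core of this element as NRF2 is a known regulator of many such genes. The letters TGACNNNGC were looked for on both strands, from 250 bases before to 50 after each start site in the RefSeq annotation of GRCm38.p6. It was found for 2 of the 8 genes with a promoter entry (25.0%), and for 13.99% of all 27025 genes. Counted by start site, it was in 2 of 11 enzyme promoters and in 12.39% of all 32851. The matches lie on the minus strand relative to the gene, 124 bases before the start site of *Prdx1* and 47 bases before that of *Sod1*. They are shown within windows of 30 bases on the plus strand, chr4:116685456-116685485 for *Prdx1* and chr16:90220696-90220725 for *Sod1*, with the matching letters in capitals.
Prdx1: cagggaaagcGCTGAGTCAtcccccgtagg
Sod1: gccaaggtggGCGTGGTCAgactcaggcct
A match is a description of the letters, not of a bound site. Neither gene passed in the comparison of the genotypes (0.09 and −0.21 on the log2 scale), and *Gpx4*, whose groups did not overlap, held no match in its 4 promoter windows.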

How the data were processed

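RNA from whole blood of 3 knockout and 3 wild type mice, grouped by the genotype in the labels, was hybridized to 12 Illumina MouseWG-6 v2 arrays. The deposited intensity values are average bead signals per probe, from which background was already subtracted and which are not normalized between arrays. Per the file headers each has a detection p-value. The authors' log2 values were made by variance-stabilizing transformation and quantile normalization with lumi, whose version is not given in the sources used here, and served as an alternative.

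In R 4.3.3 with limma 3.58.1, signals were processed with neqc (normal-exponential background model from the detection p, offset 16, quantile normalization, log2). Kept were the 5498 probes detected (p under 0.01) on 3 or more of the 12 arrays. The 2 arrays of a mouse were averaged, and genotypes were compared with lmFit and eBayes, adjusted by Benjamini-Hochberg over all kept probes. Probes were named from the platform annotation (34885 with 1 symbol, 18 with several, 10378 not listed). A gene of the wider list is represented by its brightest kept probe. Of that list, genes past the threshold and the 4 brightest are named by rule, and 6 others were added outside it (*Mgst2*, *Gsto1*, *Prdx4*, *Txnrd2*, *Nfe2l2* and *Keap1*), after their values were seen. The limma step was tested on simulated data. Python 3.11.15 with matplotlib 3.10.9 drew the figures and searched the promoters. Alternatives were other background corrections, normalizations, filters and priors, single technical arrays, array weights, the methods' analysis of variance, and each mouse left out. The number of arrays limits the precision. The members and lists were chosen with earlier results of these data known, so they are no independent support for a direction.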

Additional observations from a re-analysis of the deposited data

How the results depend on the processing

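The number of called probes (150) was 307 with 75th percentile scaling, 86 without a filter, 47 with detection on all 12 arrays (38 higher, 9 lower), 83 with technical array 1 alone, 471 with all 12 arrays and the mouse as random block, 1761 with array weights, whose estimation stopped before convergence, 259 with a trended robust prior, 3 with the methods' analysis of variance, and 40 to 344 with 1 mouse left out. Called enzyme probes (0) were 1 with 75th percentile scaling and 2 with array weights, all of *Gpx4*, and 0 in the other settings, among them the methods' analysis of variance. Called genes of the wider list (2) were 4 with no background correction, an offset of 50, a trended robust prior or the mean of a gene's probes, 1 without a filter, 7 with the mouse as random block, 10 with array weights, 0 with the analysis of variance, 0 with detection on all 12 arrays, which removes *Prdx3* and *Txn2*, and 1 to 5 with 1 mouse left out. Genes whose 2 probes differed (3) were 7 with no background correction, an offset of 50 or the authors' log2 values and 1 to 7 with 1 mouse left out. Signs turned only for values that did not pass: *Prdx1* to −0.11 (75th percentile) and −0.058 (technical array 2), *Gpx1* to −0.036 (technical array 1) and, with 1 mouse left out, to between −0.046 and 0.14, and *Prdx2* to −0.23 and −0.14 (array weights, ILMN_1242829 and ILMN_2638354). With 1 mouse left out, ILMN_1242829 ran from −0.067 to 0.55, ILMN_2638354 from −0.16 to 0.39 and ILMN_2773554 from −0.030 to 0.37. *Sod1*, *Txn1*, *Cat* and *Gpx4* kept their sign in every setting that gave a value. The labels name no pairing of mice by the letters A to C. None was visible, with same-letter correlations of 0.18, −0.18 and 0.18 beside −0.30 to 0.21 for different letters, but so few values cannot exclude it. With the letter as a replicate block 111 probes and 0 enzyme probes were called, and 1 gene differed between its 2 probes. The headers name no slides, so a slide block was not run.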

Other observations

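The deposited signals of the 2 arrays of a mouse were compared as a factor. For each measured probe of *Prdx2*, *Cat* and *Gpx4* it was larger in each knockout mouse than in any wild type mouse. This was not so for the measured probes of *Prdx1*, *Gpx1*, *Sod1* and *Txn1*. As a plain difference in signal it does not hold in knockout mouse B for *Gpx4* probe ILMN_2684855 or *Cat* probe ILMN_2772845. The deposited signal of *Cat* probe ILMN_2826110 was 3474 and 9192 on the 2 arrays of knockout mouse A, 4656 and 7214 in mouse B and 6481 and 12309 in mouse C. In wild type mice A, B and C it was 4700 and 5890, 7016 and 5764, and 5290 and 4161. For *Gpx4* probe ILMN_2684855 it was 1707 and 4084, 2432 and 3434, and 2572 and 5101 in knockout mice, against 5164 and 6423, 4651 and 5116, and 6178 and 4818 in wild type mice. In each knockout mouse technical array 2 gave the higher signal for both probes, which were picked after their values were seen. Array 2 also read higher in each knockout mouse for *Prdx1* probe ILMN_1223738, at 1604 and 1980, 1106 and 1391, and 843 and 1586. The measured probes of *Prdx2*, *Sod1*, *Gpx1* and *Txn1* gave the same direction, so it is not particular to *Cat* and *Gpx4*. For *Prdx1* it held in wild type mice too, at 1464 and 1936, 1317 and 1818, and 1120 and 1288. These signals are not normalized between arrays. On the normalized log2 scale array 1 was higher in knockout mouse B for *Cat* probe ILMN_2826110 (12.77 and 12.71) and *Gpx4* probe ILMN_2684855 (11.79 and 11.66). After normalization the technical standard deviation of these 2 probes in knockout mice was 0.37 for *Cat* and 0.33 for *Gpx4* on the log2 scale. Whether technical arrays 1 and 2 were separate hybridization runs is not given in the sources used here.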
